A study of Mus musculus with 6 samples.

Results

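The genes described here are 282 mouse genes with zinc finger symbols, not all of which are known as transcription factors. They were chosen by symbol, gene type and mean level: protein-coding genes whose symbol is Zfp, Zkscan or Zscan followed by a number, without Zfp36, and whose mean over the 6 libraries was at least 50. Symbol and gene type gave 328 genes, of which 282 reached that mean and 46 did not, in a table of 14515 genes. By symbol, 265 are Zfp, 9 Zscan and 8 Zkscan genes. The lowest means inside the limit were 51 for Zfp458, 52.5 for Zkscan14 and 53.2 for Zfp951, and the highest outside it were 48.8 for Zfp69, 48.7 for Zfp558 and 48.5 for Zfp688. What chose the members, their mean scaled count included, is not a finding.

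The C2H2 zinc finger is a small fold in which a zinc ion is held by a pair of cysteines and a pair of histidines, and arrays of such fingers read DNA sequence. Many of these proteins carry a KRAB domain, which binds the co-repressor Trim28. Trim28 in turn brings in histone methyltransferases and heterochromatin proteins that silence retroelements and imprinted regions. The SCAN domain, found in the Zkscan and Zscan genes, pairs such proteins with each other. Satellite cells are the stem cells that repair muscle fibres.

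The study measured RNA in muscle stem cell samples of 3 labelled genotypes with 2 libraries each: wild type (wt), mdx, the dystrophin-deficient model of muscular dystrophy, and mdx/Ripk3mKO, in which Ripk3, a kinase of necroptosis, is altered on the mdx background. The labels do not spell out mKO and give no age, sex or number of animals. The sources give 2 accounts of the cells. The sample labels name quiescent satellite cells sorted by flow cytometry and processed at once, 10000 to 20000 cells per library. The series text instead describes activated wild-type cells harvested 72 hours after sharing a transwell with cells of the 3 genotypes, in which case the genotype is that of the neighbouring cells.

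The targeted genes did not settle this. Dmd, the gene mutated in mdx, stood at 324 and 432 (wt), 531 and 692 (mdx), and 474 and 294 (mdx/Ripk3mKO) scaled counts. Ripk3 stood at 45 and 32, 23 and 36, and 17 and 33. Dmd was higher in both mdx libraries than in the other 4, with a log2 fold change against wt of 0.69 ± 0.33 (limma, adjusted p = 0.815), and Ripk3 overlapped between all groups. Which part of either gene is altered is not given. Markers of differentiating and dividing cells were present in all libraries, with Myog at 1300 to 1698 and Mki67 at 660 to 820 CPM (scaled counts rescaled to a common total), against 84.6 to 103 for the stem cell marker Pax7. Of other cell types, the 2 listed leukocyte markers summed to 1.33 to 2.03 CPM with overlapping groups. The pericyte and smooth muscle list came to 1943 to 2643 CPM, with sums that also overlapped. Acta2 alone made up 1745 to 2472 of it, while Notch3 was at 93.87 to 124.5 and Rgs5 at 0.53 to 1.31. Pdgfrb stood at 15.69 and 11.95 CPM in mdx/Ripk3mKO against 19.46 and 21.54 in mdx, without overlap. In wt Pdgfrb stood at 16.04 and 14.94, which overlapped mdx/Ripk3mKO. The 4 listed endothelial markers summed to 1.83 to 2.38 CPM in wt and mdx and to 1.54 and 1.76 in mdx/Ripk3mKO. The single Schwann marker in the table stood at 1.33 and 1.54 CPM in mdx/Ripk3mKO against 1.75 and 2.00 in mdx and 1.49 and 1.79 in wt. The 2 fibro-adipogenic markers summed to 2.65 and 2.95 CPM in mdx/Ripk3mKO against 2.95 and 3.35 in mdx. In wt they summed to 2.46 and 3.38, which spanned both other groups. The 3 markers of dividing cells summed to 1329 and 1474 CPM in mdx/Ripk3mKO against 1481 and 1610 in mdx, with wt at 1452 and 1506. The part of such cells in the results was not tested. The leukocyte genes Ptprc and Adgre1 were not in the table, nor were the 4 lymphocyte markers.

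The library totals were 20611974 to 21037153 scaled counts, after scaling by the authors. The pattern of skipped and doubled whole numbers gave a divisor of 0.87 to 0.955 for the wt and mdx libraries and of 1.20 to 1.21 for the mdx/Ripk3mKO libraries. The unscaled totals then come to about 17994000 to 19674000 in wt and mdx and to 25015000 and 25339000 in mdx/Ripk3mKO, so that depth and genotype cannot be told apart. The first mdx/Ripk3mKO library stood apart: Xist was 6918 against 164 to 666 elsewhere, and 4 Y-linked genes summed to 1130 against 4473 to 4970. Values for the members as a whole, for classes, clusters and GC bins, and for Zkscan3, Zfp871 and Zfp101 are given with and without it. Fewer cells of a type and less RNA per cell cannot be told apart in such samples, and the labels do not say whether a group's 2 libraries are 2 animals, so the p-values measure only the spread between these libraries.

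All 282 members were above 0 in every library, with a lowest single value of 42, and all 282 were tested. Together they made up 0.893% and 0.903% of all scaled counts in wt, 0.896% and 0.897% in mdx, then 0.856% and 0.881% in mdx/Ripk3mKO. Both mdx/Ripk3mKO libraries were therefore below the other 4. The median member differed between the 2 libraries of a group by 0.098 (wt), 0.095 (mdx) and 0.10 (mdx/Ripk3mKO) on the log2 scale, which sets the size of difference that 2 libraries can resolve.

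Translated coding sequences placed the members in 4 classes. A KRAB domain without a SCAN domain was found in 142 members. A SCAN domain was found in 30, of which 15 also had a KRAB domain, so that 157 members carried KRAB. Of those with neither domain, 82 had at least 4 finger matches and 28 had fewer. The median member had 10 fingers, with a range from 0 to 36, and the median KRAB member had 12. Zfp703 was the named gene with 0 matches to the classic finger pattern.

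Levels per kilobase of exon differed widely. Zfp106, an RNA-binding protein needed for neuromuscular function, was highest at a mean of 1950 scaled counts per kilobase. Zfp568, a KRAB protein that represses a placental Igf2 promoter, followed at 1408, and Zfp207, a mitotic spindle protein, at 1311. Zfp706 came next at 587, then Zfp146 at 517, Zfp131 at 479, Zfp91 at 455, Zfp275 at 408, Zfp664 at 353 and Zfp346 at 347. The lowest member was Zfp458 at 6.29, and the median was 63.9 for members against 156 for protein-coding genes of the same minimum mean. These genes of highest level did not pass the test in any comparison. Zfp106 had scaled counts of 20384 and 20560 in wt, 21354 and 19265 in mdx, then 21147 and 19326 in mdx/Ripk3mKO, so that the spread within mdx and within mdx/Ripk3mKO exceeded the differences between group means. Zfp568 had 10348 and 10354, 10993 and 10202, and 9860 and 10352, and its log2 fold change of mdx/Ripk3mKO against mdx was -0.07 ± 0.05 (SE, n = 2 libraries a group). Zfp207 stood at 8589 to 8900 in all 6 libraries. For Zfp207 the 95% interval of that difference ran from -0.09 to 0.11.

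The first comparison, mdx against wt, asks what differs with the mdx label, be it that of the measured or of the neighbouring cells. No member passed an adjusted p of 0.05 in limma's test with Benjamini-Hochberg adjustment over 14077 genes, where 0.0071% of all genes (1 gene) did. That gene count was 103 without either mdx/Ripk3mKO library and 0 without any of the other 4. At an unadjusted p under 0.05 there were 10 members, beside 6.46% of all genes. Of these 6 were higher, beside 3.44% of all genes, and 4 lower, beside 3.02%. The median log2 fold change of the members was 0.018, beside -0.0022 for all genes tested, and 155 members were above 0 and 126 below. This median turned to -0.0099 under GC and length correction and to -0.0020 without the first wt library. Both mdx libraries lay above both wt libraries for 53 members and below them for 43. Over all genes, 17.6% were higher and 18.3% lower in this sense, so the members' counts were near the background.

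The 5 smallest p-values among higher members all belonged to KRAB genes. Zfp846 had scaled counts of 268 and 269 in wt, 307 and 339 in mdx, then 269 and 265 in mdx/Ripk3mKO. Its mdx libraries were the highest 2 of 6, with a log2 fold change against wt of 0.26 ± 0.10 and an adjusted p of 0.668 in limma's test. Zfp383 (132 and 144, then 161 and 189), Zfp612 (64 and 75, then 91 and 97), Zfp566 (127 and 123, then 153 and 164) and Zfp945 (175 and 218, then 247 and 236) likewise had both mdx libraries above both wt libraries. Their log2 fold changes were 0.34, 0.43, 0.34 and 0.30. For Zfp383 it was 0.22 without the second mdx library, and for Zfp945 0.15 and 0.46 without the first and second wt library. Of the transcript windows of Zfp566, 15.7% also occur in other genes. Among lower members, Zfp324 had 160 and 160 in wt and 106 and 130 in mdx, a log2 fold change of -0.44 ± 0.16. Zfp341 (127 and 134, then 87 and 109), Zfp30 (188 and 168, then 135 and 150), Zfp458 (58 and 68, then 48 and 42) and Zfp94 (68 and 68, then 50 and 50) also did not overlap between the groups. Zfp341 was at -0.42, and at -0.26 without the first mdx library. Adjusted p-values of these 10 genes lay between 0.650 and 0.780 in limma's test, so none is a call.

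The second comparison, mdx/Ripk3mKO against mdx, asks what differs with the added Ripk3mKO label, again of the measured or of the neighbouring cells. In it 1 member passed, Zkscan3, which was lower; 0.121% of all genes tested were called lower, 0.0852% higher and 0.206% (29 genes) in either direction. The number of genes called in all was 278 without the first mdx/Ripk3mKO library and 1 to 28 without any other library, and no member was among the 278. Of the members 189 were below 0 and 93 above, where 50.7% of all genes tested and 47.2% of protein-coding genes with a mean of at least 50 were below 0. The members' median log2 fold change was -0.051, beside -0.0021 for all genes tested. It turned to 0.0077, beside 0.039 for all genes, when libraries were corrected for GC content and length, with 133 members below 0. At an unadjusted p under 0.05 there were 25 lower and 4 higher members, 8.87% of the members being lower in this sense beside 5.87% of all genes, while 5.77% of all genes were higher. Libraries did not overlap for 85 lower members, 30.1% of them beside 20.3% of all genes, and for 24 higher members, 8.51% beside 21% of all genes. Without the first mdx/Ripk3mKO library the median was -0.028 with 169 members below 0, and without the second it was -0.074 with 201 below 0.

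Zkscan3, a SCAN and KRAB protein with 7 fingers known as a repressor of autophagy genes, lies on chromosome 13 from 21387003 to 21402755 on the minus strand (ENSMUSG00000021327, GRCm38). Its scaled counts were 1269 and 1264 in wt, 1305 and 1264 in mdx, then 1002 and 1043 in mdx/Ripk3mKO. The mdx/Ripk3mKO libraries were the lowest 2 of the 6, and the wt and mdx libraries overlapped. The log2 fold change against mdx was -0.33 ± 0.06 (SE; 95% interval -0.46 to -0.20; limma, adjusted p = 0.0476). It was called in 5 of 15 alternative analyses, with values from -0.36 to -0.28 and adjusted p-values from 0.042 to 0.437 in limma. The call was lost without any 1 of the 6 libraries: the adjusted p was 0.186 and 0.185 without the first and second wt library, 0.210 and 0.221 without each mdx library, and 0.0649 and 0.0974 without the first and second mdx/Ripk3mKO library. Correcting each library for GC content and exon length gave -0.28 and an adjusted p of 0.109.

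**Figure D1:**
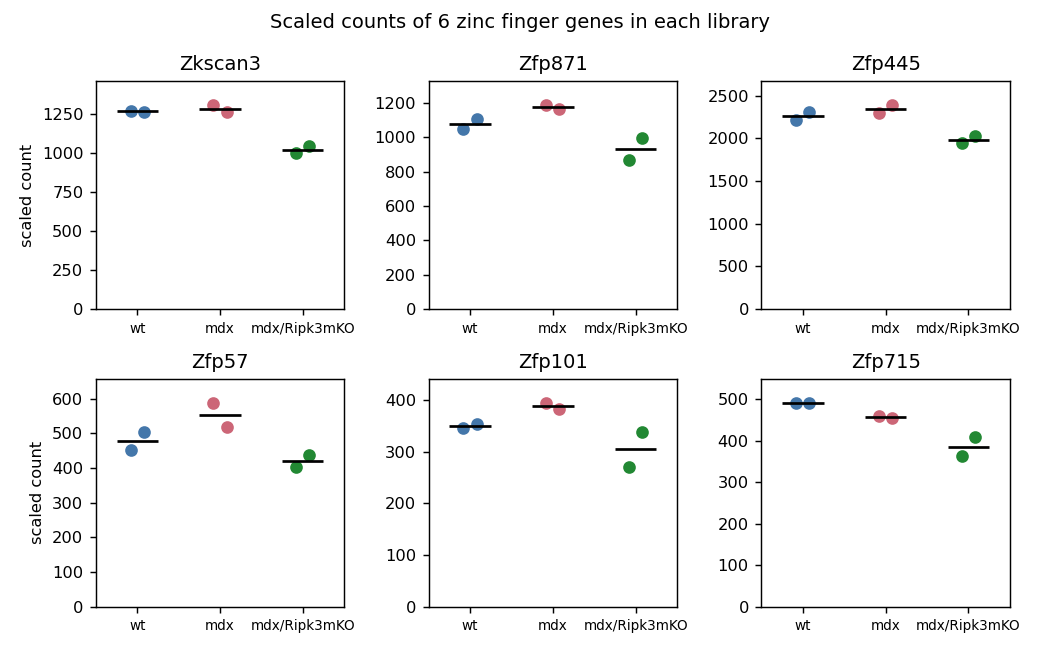
Scaled counts (vertical axis, from 0) of Zkscan3, Zfp871, Zfp445, Zfp57, Zfp101 and Zfp715 in each of the 6 libraries, by genotype. Points are libraries and horizontal bars are group means of 2 libraries; in all 6 genes both mdx/Ripk3mKO libraries lie below both wt and both mdx libraries.

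The other members with the smallest p among those lower than in mdx were 4 genes with a KRAB domain, none of which passed the adjusted threshold. Zfp871 had 1047 and 1106 in wt, 1185 and 1164 in mdx, then 867 and 993 in mdx/Ripk3mKO. Both mdx/Ripk3mKO libraries were below the other 4, the first of them the more so. The log2 fold change was -0.34 ± 0.07 with an adjusted p of 0.0827 in limma's test, and -0.44 with an adjusted p of 0.0477 without the second mdx/Ripk3mKO library. Without the first it was -0.24 with an adjusted p of 0.191, and -0.24 with 0.224 under GC and length correction. Zfp445, a KRAB and SCAN protein that keeps imprinted regions methylated, had 2209 and 2313, 2301 and 2384, and 1942 and 2022. Both mdx/Ripk3mKO libraries of Zfp445 were below the other 4, while wt and mdx overlapped. Its log2 fold change was -0.24 ± 0.06 with an adjusted p of 0.106 in limma. Zfp57, the other KRAB protein known to protect imprints, had 452 and 503, 587 and 518, and 402 and 439. Its mdx libraries were the highest and its mdx/Ripk3mKO libraries the lowest, with -0.39 ± 0.09 and an adjusted p of 0.111 in limma. Zfp101 had 345 and 354, 394 and 382, and 271 and 339, with -0.36 ± 0.11 and an adjusted p of 0.226 in limma. It was -0.19 without the first mdx/Ripk3mKO library (adjusted p 0.568 in limma) and -0.52 without the second. Its second mdx/Ripk3mKO library lay just under the wt libraries.

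The promoters of 3 of these genes are shown because their values were low together in the mdx/Ripk3mKO libraries. Each runs from 250 bases before to 50 bases after the start of the gene (RefSeq, GRCm38.p6), 5′ to 3′ on the gene's strand, with each CG dinucleotide in capitals. Zfp445 lies on the minus strand at chr9:122865957-122866256, Zfp871 on the minus strand at chr17:32788238-32788537 and Zfp57 on the plus strand at chr17:37000913-37001212.
Zfp445: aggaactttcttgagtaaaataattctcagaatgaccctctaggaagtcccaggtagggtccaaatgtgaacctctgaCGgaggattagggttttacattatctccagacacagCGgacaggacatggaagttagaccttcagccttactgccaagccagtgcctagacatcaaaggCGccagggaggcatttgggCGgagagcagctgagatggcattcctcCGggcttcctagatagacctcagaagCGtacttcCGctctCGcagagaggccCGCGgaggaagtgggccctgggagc
Zfp871: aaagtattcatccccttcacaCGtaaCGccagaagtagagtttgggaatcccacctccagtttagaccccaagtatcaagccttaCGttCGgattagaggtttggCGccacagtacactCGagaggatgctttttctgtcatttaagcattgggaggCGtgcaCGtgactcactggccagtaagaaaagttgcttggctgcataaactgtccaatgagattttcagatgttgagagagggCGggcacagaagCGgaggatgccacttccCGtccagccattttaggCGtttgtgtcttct
Zfp57: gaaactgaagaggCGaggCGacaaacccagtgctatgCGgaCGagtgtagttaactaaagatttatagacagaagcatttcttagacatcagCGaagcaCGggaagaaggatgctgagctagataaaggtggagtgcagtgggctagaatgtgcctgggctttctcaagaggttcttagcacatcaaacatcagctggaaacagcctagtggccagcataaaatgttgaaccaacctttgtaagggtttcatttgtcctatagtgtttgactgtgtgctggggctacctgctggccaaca
These windows held 10, 12 and 6 CG dinucleotides. The RefSeq table gave promoters for 232 of the 282 members, Zkscan3 not among them. Members had a median of 15.5 CG dinucleotides per window, and the 9447 other tested protein-coding genes with a window had 21. TGCCGC, the sequence that Zfp57 itself reads when methylated, was present on either strand in 44 of 232 member windows, or 19.0%, and in 20.0% of the others. ACTACAA, a part of the motif of Zfp143, was present in 17 member windows, or 7.33%, and in 4.30% of the others. Neither was found in the 3 windows printed. A match here describes letters only.

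Of the members higher in mdx/Ripk3mKO than in mdx, none passed the adjusted threshold. Zfp598, a ubiquitin ligase of stalled ribosomes, had 1253 and 1199 in wt, 1100 and 1153 in mdx, then 1277 and 1304 in mdx/Ripk3mKO. Its mdx libraries were the lowest 2 of 6, with a log2 fold change of 0.20 ± 0.06 and an adjusted p of 0.242 in limma, and 0.13 after GC and length correction. Zfp319 (571 and 608 in mdx, 694 and 652 in mdx/Ripk3mKO), Zfp384 (969 and 963, then 1056 and 1076), Zfp954 (157 and 167, then 195 and 201) and Zfp358 (455 and 418, then 506 and 491) also did not overlap. For all 4 a wt library overlapped the mdx or the mdx/Ripk3mKO libraries. Adjusted p-values for these 4 genes lay between 0.397 and 0.438 in limma.

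The third comparison, mdx/Ripk3mKO against wt, shares its libraries with both others, so its values are not independent of them. No member and no gene passed the adjusted threshold in limma (0% of all genes), while 20 genes did without the second mdx/Ripk3mKO library, no member among them. At an unadjusted p under 0.05 there were 14 members, beside 3.32% of all genes. All 14 were lower, beside 2.09% of all genes, and 1.24% of all genes were higher. The members' median was -0.036, beside 0.0012 for all genes, and 179 members were below 0, beside 49.4% of all genes and 47% of protein-coding genes with a mean of at least 50. Libraries did not overlap for 71 lower members (25.2%, beside 15.1% of all genes) and 30 higher members (10.6%, beside 14.4%). Without the first mdx/Ripk3mKO library the median was -0.011 with 151 members below 0, and without the second it was -0.060 with 192 below 0. Zkscan3 had the smallest p, with -0.31 ± 0.06 and an adjusted p of 0.508 in limma. Zfp715 had 491 and 491 in wt, 460 and 456 in mdx, then 363 and 409 in mdx/Ripk3mKO. Its 3 groups did not overlap, and its log2 fold change against wt was -0.35 ± 0.09 with an adjusted p of 1 in limma. Zfp7 had 364 and 384 in wt and 291 and 325 in mdx/Ripk3mKO, a log2 fold change of -0.28 ± 0.10. Among higher members, Zfp882 had 84 and 70 in wt and 108 and 96 in mdx/Ripk3mKO, and Zfp64 had 476 and 479 against 541 and 515. Zfp35 had 618 and 578 against 649 and 666, and Zfp428 had 271 and 252 against 292 and 302. Over the 3 groups together, limma's F-test called no member, beside 0.0781% of all genes, and 14 members had an unadjusted p under 0.05, beside 7.87%. The smallest adjusted p was 0.0973, for Zkscan3.

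The 4 classes differed in their medians in mdx/Ripk3mKO against mdx. The KRAB class had a median of -0.071 with 106 of 142 below 0, and libraries did not overlap for 49 lower and 9 higher members. Over all genes tested 50.7% were below 0, and 20.3% were lower and 21% higher without overlap. The SCAN class had a median of -0.088 with 23 of 30 below 0, and 11 lower and 1 higher that did not overlap. Members with many fingers and neither domain had a median of -0.014 with 43 of 82 below 0, and those with few fingers -0.027 with 17 of 28 below 0. In mdx against wt the 4 medians were 0.034, 0.026, -0.0096 and -0.016 in the same order. In mdx/Ripk3mKO against wt they were -0.038, -0.059, -0.034 and -0.019, with 62.7% of KRAB and 62.2% of many-finger members below 0, so that these 2 classes lay close together there. No test of the differences between classes was made. Without the first mdx/Ripk3mKO library the KRAB median was -0.052 and the SCAN median -0.048, while the many-finger median was 0.023. Without the second library these were -0.079, -0.099 and -0.052, with 54 of 82 many-finger members below 0.

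**Figure D2:**
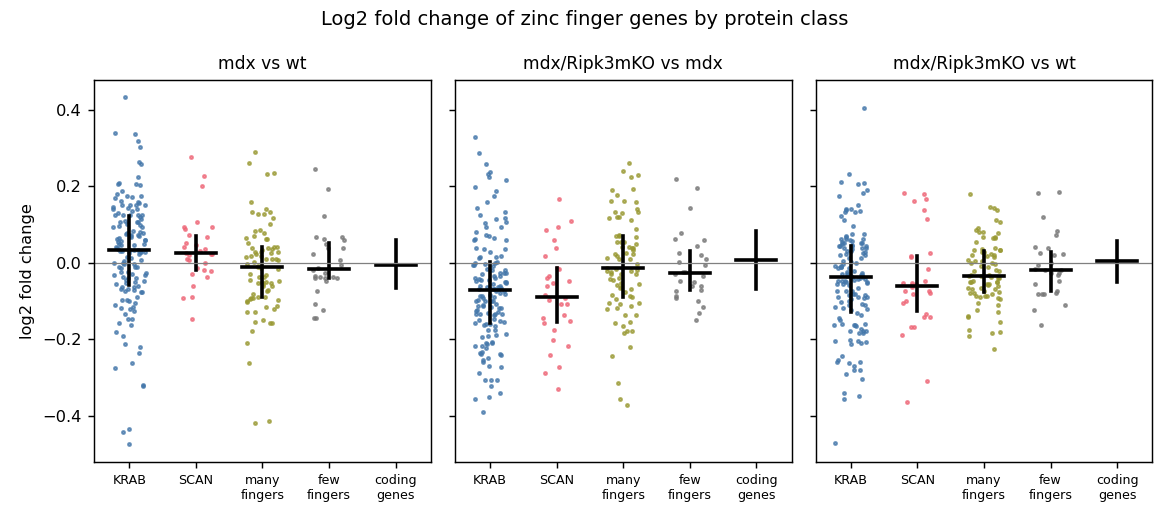
Log2 fold change (vertical axis) of each member by protein class in the 3 comparisons. Points are genes, horizontal bars class medians and vertical bars the range from the lower to the upper quartile, which is also drawn for protein-coding genes with a mean of at least 50; in the middle panel the KRAB median is -0.071 and the SCAN median -0.088.

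Seen by library, the median member lay 0.0072 and 0.025 above its own mean over the 6 libraries in wt, and 0.018 above it in both mdx libraries. It was at -0.051 and -0.013 in the first and second mdx/Ripk3mKO library. The KRAB class stood at -0.055 and -0.031 there and the SCAN class at -0.078 and -0.018. Both mdx/Ripk3mKO libraries were thus lower for both classes, and the first, which also stood apart in Xist, was the lower. For members with many or few fingers the second mdx/Ripk3mKO library was above 0, at 0.013 and 0.012.

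**Figure D3:**
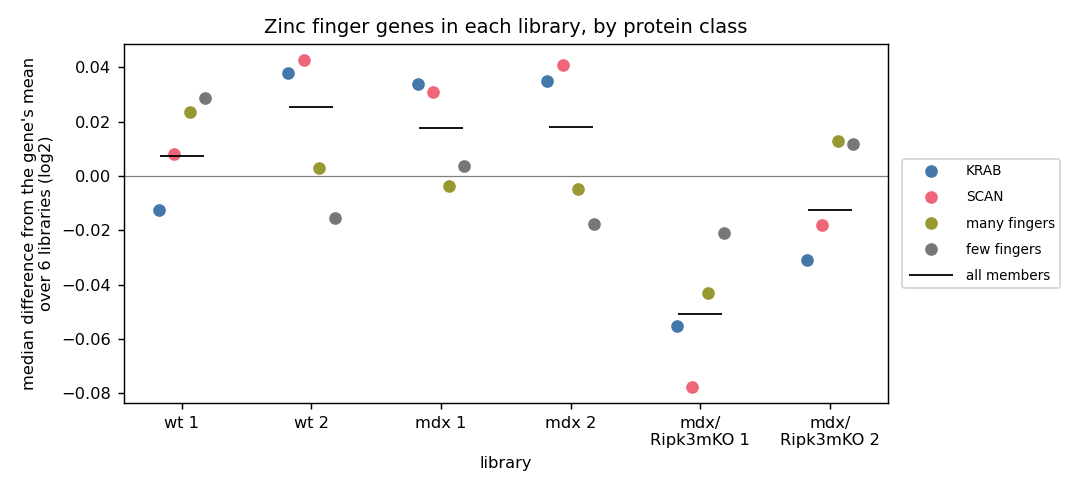
Median difference of the members from their own mean over the 6 libraries (vertical axis, log2), by protein class, in each library. Coloured points are the 4 classes and black bars all 282 members, which stand at -0.051 and -0.013 in the mdx/Ripk3mKO libraries and above 0 in the other 4.

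Transcript GC content moved with these differences. The median GC content of the longest transcript was 44.9% for members and 49.6% for protein-coding genes with a mean of at least 50. Of the members, 135 of 282 (47.9%) fell in the lowest of 4 equal GC bins of those genes. By class the medians were 42.3% for KRAB, 47.3% for SCAN, 50.7% for many and 47.9% for few fingers. Across genes, Spearman's rho between GC content and the log2 fold change of mdx/Ripk3mKO against mdx was 0.39 over 282 members and 0.37 over 10382 other protein-coding genes, which share the same 4 libraries. With exon length rho was -0.20 and -0.22. In the lowest GC bin the median was -0.086 for members and -0.039 for other genes, in the second -0.060 and -0.0084, in the third -0.021 and 0.033, and in the highest 0.061 and 0.081. Members were below the others in each bin. Without the first mdx/Ripk3mKO library this held in the lower 3 bins, and in the highest the members were at 0.098 and the others at 0.083. After each library was corrected for GC content and exon length, the members' median was 0.0077, beside 0.039 for all genes tested, and 133 members (47.2%) were below 0, beside 38.2% of all genes. Under that correction the KRAB median was 0.0078 and the SCAN median -0.036, with 20 of 30 SCAN members below 0, 19 of them also below 0 as first fitted. GC content moved with the other comparisons too. In mdx against wt rho was -0.24 over members and -0.22 over other genes, and the corrected KRAB and SCAN medians were -0.00012 and 0.0063. In mdx/Ripk3mKO against wt rho was 0.22 and 0.27, and these medians were 0.0083 and -0.036. All genes tested then stood at -0.023 and 0.017.

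**Figure D4:**
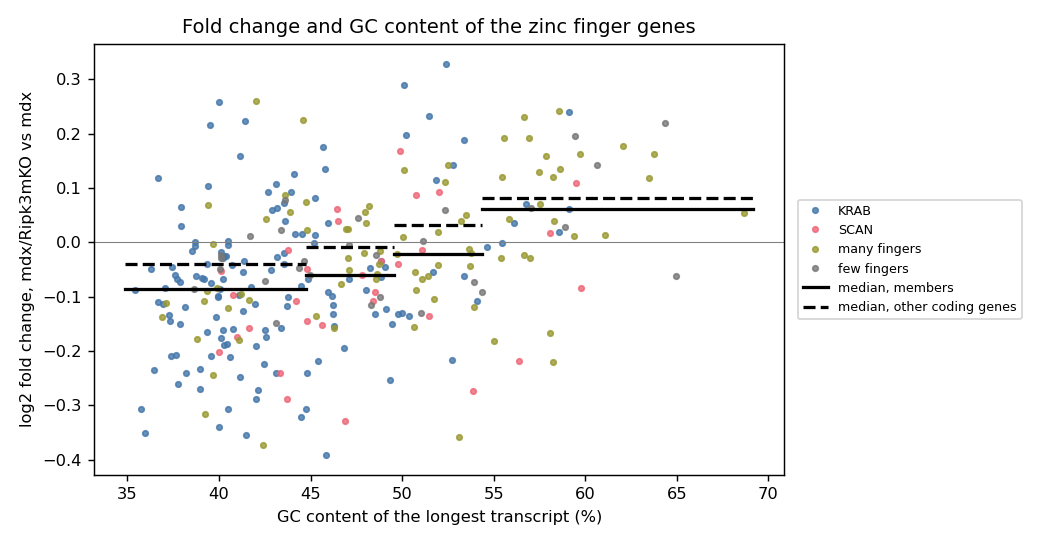
Log2 fold change of mdx/Ripk3mKO against mdx (vertical axis) against GC content of the longest transcript (horizontal axis, percent) for the 282 members, coloured by class. Solid lines are members' medians and dashed lines those of other protein-coding genes in 4 bins of GC content; both rise from the lowest bin (-0.086 and -0.039) to the highest (0.061 and 0.081).

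Members of known role were looked at by what they do. Among the KRAB repressors of retroviral elements, Zfp809, which silences leukemia viruses, had 275 and 337 in wt, 321 and 318 in mdx, then 306 and 333 in mdx/Ripk3mKO. Its groups overlapped, and the 95% interval of mdx/Ripk3mKO against mdx ran from -0.24 to 0.24. Zfp932, another repressor of retroviral elements, had 149 and 179, 178 and 184, and 163 and 164, but 45.2% of its transcript windows also occur in other genes. Of the imprint regulators, Zfp57 and Zfp445 are given above.

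Among the factors with neither domain, Zfp521, a regulator of cell fate in blood and fat lineages, stood at 1428 to 1741 in the 6 libraries, and its relative Zfp423 at 60 to 67. Zfp462 had 1408 and 1427, 1249 and 1361, and 1214 and 1469, so that the mdx/Ripk3mKO libraries spanned all others. Zfp292 had 2137 and 2143, 2213 and 2269, and 2084 and 2037. Its groups did not overlap, and the log2 fold change of mdx/Ripk3mKO against mdx was -0.12 ± 0.05 (limma, adjusted p = 0.417). Zfp281, a factor of pluripotent cells, had 1466 and 1673, 1660 and 1624, and 1513 and 1449, with -0.15 ± 0.07 (limma, adjusted p = 0.419). Zfp148 had 2105 and 2037, 2134 and 2106, and 2001 and 1998, with -0.08 ± 0.05. Zfp143, which binds promoters, had 1024 and 983, 943 and 992, and 1042 and 995, with 0.07 ± 0.07. Zfp592, Zfp687 and Zfp532, which form a complex with each other, stood at 951 to 1076, 728 to 874 and 270 to 319. None of the 3 was called in any comparison. Zfp638 was at 3459 to 3602 in all 6 libraries. Zfp217 was at 375 and 372 in wt and 418 and 416 in mdx, and it was not called in any comparison. Zfp318 (1030 to 1174), Zfp335 (540 to 610) and Zfp703 (912 to 1101) were not called in any comparison either.

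The SCAN genes of known name gave a mixed picture. Zkscan1 stood at 1458 to 1536 in the 6 libraries and Zkscan17 at 923 to 1009. The log2 fold changes of mdx/Ripk3mKO against mdx were -0.01 and 0.02. Zscan21 (761 to 832) and Zscan29 (344 to 425) overlapped between mdx and mdx/Ripk3mKO. On chromosome 13 beside Zkscan3 lie Zscan12, Zscan26 and Zkscan8, looked at after the value of Zkscan3 was known. Zscan12 had 297 and 324 in wt, 337 and 323 in mdx, then 304 and 293 in mdx/Ripk3mKO. Zscan26 had 657 and 701, 663 and 639, and 582 and 627, and Zkscan8 had 774 and 767, 797 and 848, and 689 and 770. In all 3 neighbours both mdx/Ripk3mKO libraries were below both mdx libraries, with log2 fold changes of -0.14, -0.11 and -0.17 and unadjusted p-values of 0.162, 0.183 and 0.0366 in limma's test. Over all genes tested, 20.3% were lower without overlap in this comparison. So were 11 of the 22 members anywhere on chromosome 13, of which 19 were below 0. None of the 3 neighbours passed after adjustment, and 23.1% of the transcript windows of Zscan26 also occur in other genes.

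The members most like Zkscan3 over the 6 libraries, by Pearson's r of log2 values, were Zfp397 (0.948), Zfp445 (0.945), Zkscan6 (0.933), Zfp715 (0.922) and Zfp260 (0.921). All 5 were picked as the highest of 281 correlations over 6 points, so the values are a description. Zfp397, a SCAN gene, had 1298 and 1338 in wt, 1393 and 1309 in mdx, then 1134 and 1215 in mdx/Ripk3mKO. Zkscan6 had 203 and 208, 214 and 206, and 186 and 196, and Zfp260 had 1710 and 1681, 1690 and 1744, and 1580 and 1611. In each the mdx/Ripk3mKO libraries were the lowest 2 of 6.

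The partners of the KRAB proteins were taken from a list of 32 co-repressor and heterochromatin genes, of which 31 were listed in the table and 30 were tested. None passed the adjusted threshold in any of the 3 comparisons in limma. At an unadjusted p under 0.05 there was 1 in mdx against wt, 6 in mdx/Ripk3mKO against mdx (3 higher, 3 lower) and 2 in mdx/Ripk3mKO against wt. The shares over all genes were 6.46%, 11.6% and 3.32%. Trim28, the co-repressor that KRAB domains bind, had 9760 and 9005 in wt, 8165 and 8566 in mdx, then 9132 and 10011 in mdx/Ripk3mKO. Its mdx libraries were the lowest 2 of 6, with -0.16 ± 0.06 against wt (adjusted p 0.650 in limma) and 0.19 ± 0.06 for mdx/Ripk3mKO against mdx (adjusted p 0.215 in limma). The last value was 0.12 after GC and length correction. It was 0.26 and 0.13 without the first and second mdx/Ripk3mKO library. The value of mdx against wt was -0.11 and -0.22 without the first and second wt library. Fam208a, the Tasor subunit of the HUSH silencing complex, had 492 and 539, 516 and 515, and 430 and 436, with -0.25 ± 0.08 against mdx and -0.14 after GC and length correction. Daxx, a histone chaperone, was at 579 and 581 in mdx/Ripk3mKO against 500 and 504 in mdx, with 0.21 ± 0.08. Mbd3, a subunit of the NuRD complex, had 2702 and 2864 in mdx/Ripk3mKO against 2533 and 2408 in mdx, with 0.17 ± 0.06, which the correction took to 0.072. Cbx5, the heterochromatin protein HP1 alpha, was at 16702 and 16918 in mdx/Ripk3mKO against 18087 and 18120 in mdx, and Atrx at 5472 and 5679 against 5952 and 6190. The median over the list was -0.0068 in this comparison with 16 of 30 below 0. Without the first mdx/Ripk3mKO library the median was 0.031 with 8 below 0, and without the second -0.027 with 21 below 0. It was -0.025 with 21 of 30 below 0 in each of the other comparisons; in mdx against wt 9 genes were lower without overlap and 1 higher, beside 18.3% and 17.6% of all genes.

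Many members lie close to each other. Chromosome 7 held 70 members, chromosome 17 held 35, chromosome 13 held 22, and chromosomes 5 and 8 held 20 each. Of the 282, 171 had another member within 250000 bases, and 11 clusters of at least 5 members held 90 of them. In mdx/Ripk3mKO against mdx the lowest cluster median was -0.14, for 5 KRAB genes on chromosome 9 from 20345136 to 20605409 (Zfp560, Zfp26, Zfp426, Zfp266 and Zfp846), all 5 below 0. It was -0.10 for 8 KRAB genes on chromosome 13 from 67038596 to 67729173, 7 of them below 0. On chromosome 17 the medians were -0.094 for 10 members from Zfp871 to Zfp414 and -0.062 for 13 members from Zfp54 to Zfp946. On chromosome 7 the cluster from Zfp84 to Zfp146, which holds Zfp568, had a median of -0.088 over 13 members. Other clusters on chromosome 7 had medians of 0.087 (7 members, Zscan18 to Zfp446) and 0.054 (9 members, Zfp553 to Zfp646), with 2 and 3 members below 0. Median GC content was 40.3% in the chromosome 9 cluster, 39.0% in that on chromosome 13, and 49.8% and 53.4% in these 2 on chromosome 7. After GC and length correction the medians were -0.049 on chromosome 9 and 0.013 on chromosome 13. On chromosome 17 the cluster from Zfp54 turned from -0.062 to 0.094 and that from Zfp871 went to -0.0067. On chromosome 7 the cluster from Zfp84 went to -0.028, and those from Zscan18 and Zfp553 were at 0.099 and 0.054. Without the first mdx/Ripk3mKO library the cluster from Zfp871 stood at -0.17, those from Zfp54 and Zfp84 at -0.018 and -0.033, and those from Zscan18 and Zfp553 at 0.0074 and 0.0049. The chromosome 9 and chromosome 13 clusters stood at -0.12 and -0.096 without it.

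**Figure D5:**
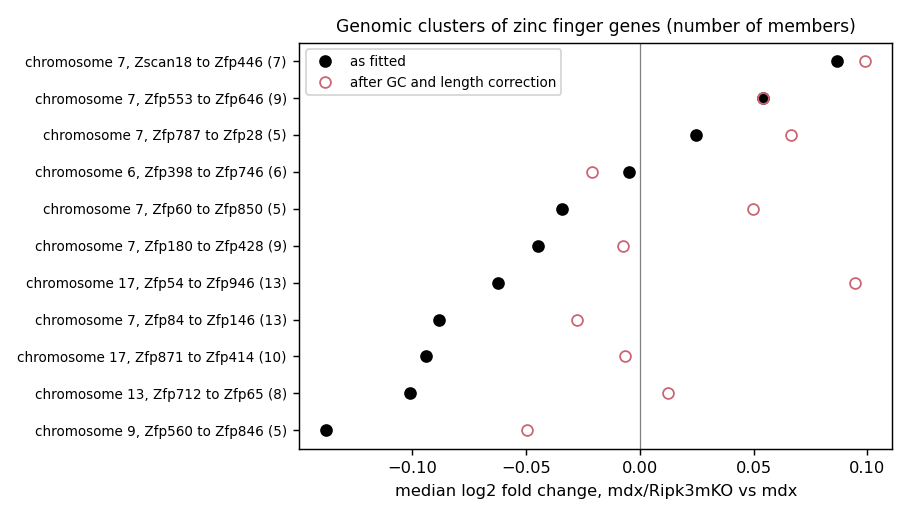
Median log2 fold change of mdx/Ripk3mKO against mdx (horizontal axis) in the 11 genomic clusters with at least 5 members, named by chromosome and by first and last member, with the number of members in parentheses. Filled points are values as fitted, from -0.14 on chromosome 9 to 0.087 on chromosome 7, and open points are values corrected for GC content and length of exons.

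Near-identical copies limit single genes. The median member shared 0.595% of its 50-base transcript windows with another gene, 108 members shared none, and 51 shared over 10%. More than 50% was shared by 6: Zfp960 at 84.5%, Zfp97 at 83.1%, Zfp984, Zfp970, Zfp59 and Zfp213, named after their values were seen, whose values are uncertain because counting may split such reads. In mdx/Ripk3mKO against mdx the median was -0.059 over the 51 members that shared over 10% and -0.050 over the other 231. Other DNA-binding zinc finger families gave the following in the same comparison. The 32 Zbtb genes with the same minimum mean had a median of -0.0092 with 17 below 0, and 1, Zbtb20, was called lower, where 50.7% of all genes were below 0 and 0.121% called lower. The 17 Klf and Sp genes had a median of -0.014 with 10 below 0, and 1, Sp7, was called higher, beside 0.0852% of all genes. Without the first mdx/Ripk3mKO library the medians of these families were 0.0092 and 0.0016, and without the second -0.049 and -0.037. Under GC and length correction they were 0.018 and 0.042. The members stood at -0.028, -0.074 and 0.0077 in these settings. In mdx/Ripk3mKO against wt the Zbtb median was -0.048 with 62.5% below 0, beside -0.036 and 63.5% for members and 49.4% for all genes. There 34.4% of Zbtb genes were lower without overlap, beside 25.2% of members and 15.1% of all genes. The Klf and Sp median there was 0.0046.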

How the data were processed

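RNA was extracted from 10000 to 20000 cells per library and made into libraries with a stranded total RNA kit, per the labels' protocols. The deposited table gives the authors' read counts per gene as a scaled score, rounded to whole numbers and scaled between libraries, so raw counts are not at hand. Per the submitters' processing notes, the build was mm10 and the tools were DESeq2 1.18.1, featureCounts 1.6.3 of Subread, STAR 2.6.1d and Trimmomatic 0.36, with no roles given. The use of strand in counting is not stated. The 2 mdx columns share 1 header and carry no replicate number of their own, so the numbers 1 and 2 are names only.

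The members and gene lists were chosen with earlier results of these data known. Genes with a value of at least 10 in at least 2 libraries (14077 tested, 438 not) were fitted with limma 3.58.1 in R 4.3.3 on log2(scaled count + 1), all 6 libraries in 1 model with genotype as the only term, with a variance trend and robust fitting (3 residual degrees of freedom). Tests were two-sided with Benjamini-Hochberg adjustment at 0.05. Fold changes on this scale understate those of low genes. As the values are not raw counts, no count model was used. Domains were found with pyhmmer 0.12.3 profiles (E-value at most 0.001) in coding sequences translated from GENCODE M21, built on GRCm38.

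Genes were named by rule: members past the threshold, the 5 with the smallest p in each direction and comparison, the 10 highest per kilobase, those at the edge of the minimum mean, a list of members of known role, co-repressors with the smallest p, and the 5 members most like Zkscan3. Zscan12, Zscan26, Zkscan8, Zbtb20, Sp7, the cluster members and the genes sharing over 50% of windows were named after their values were seen. Alternatives covered normalization, pseudocount, filters, variance model, GC and length correction, membership limit and leaving out each library. Medians of clusters, GC bins and lists without each mdx/Ripk3mKO library were added after seeing the data.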

Additional observations from a re-analysis of the deposited data

How the results depend on the processing

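Of the alternative values for the counts of called members and for the medians, 19 moved beyond the range set for each. In mdx/Ripk3mKO against mdx, the count of called members was 0 with a filter on a mean of at least 50, without variance trend and robust fitting, when corrected for GC content and length, and with only the 2 groups compared; leaving out 1 library gave 0 to 1, the 1 being Zfp871 without the second mdx/Ripk3mKO library. The members' median there was -0.034 under quantile normalization and 0.0077 after the GC and length correction, and -0.074 to -0.028 when 1 library was left out. In mdx against wt the median was -0.0099 after that correction and -0.0020 to 0.026 with 1 library left out. In mdx/Ripk3mKO against wt it was -0.0048 after that correction and -0.060 to -0.011 with 1 library left out. The F-test called 0 to 1 member with 1 library left out, the 1 again being Zfp871 without the second mdx/Ripk3mKO library. The log2 fold change of Zkscan3 in mdx against wt, near 0 throughout, reversed to -0.0052 after GC and length correction and ranged from -0.0028 (without the first mdx library) to 0.043 with 1 library left out. Leaving out 1 library leaves its group with 1, which is then assumed to vary like the others. The cause of these changes was not tested. Replicate numbers could be used only between wt and mdx/Ripk3mKO. The replicate block gave 0 called members and a median of -0.036. Same-numbered libraries deviated from their group means with a correlation of -0.0049 over 11027 genes, so the numbers were not taken as pairs. With 2 libraries a group, the rounding and scaling of the deposited values limit what can be resolved.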
